A study of Mus musculus with 12 samples.

Results

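The 10 genes described here encode the enzymes that methylate lysine 4 of histone H3 (H3K4) and the core subunits that these enzymes share. They were taken by name from the 25759 genes listed for every library, and all 10 were found in all 12 libraries. RNA was sequenced from HATX3 mouse embryonic stem cells (ESCs), a diploid line of haploid origin. In these cells the nls-rtTA activator, made from Rosa26, turns on a tetO promoter in front of Xist when doxycycline is added, and controls and mutants carry this system alike. Wild-type samples were the polyclonal parental cells, numbered 1, 2 and 3. The ΔCdk8 samples were clones 8, 11 and 15, each a single clone with a small deletion that removes the start codon of Cdk8, the kinase of a module that binds the Mediator complex. RNA came from each without doxycycline (uninduced) and after 48 h of Xist expression (induced), so there are 4 groups of 3 libraries.

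H3K4 methylation marks active promoters and enhancers. Mammals make it with COMPASS-like complexes, each built around a catalytic subunit of the SET domain type: Kmt2a and Kmt2b, which work with menin at CpG-rich promoters, Kmt2c and Kmt2d, which monomethylate H3K4 at enhancers, and Setd1a and Setd1b, which make much of the trimethylated H3K4 at active promoters. The core subunits Wdr5, Rbbp5, Ash2l and Dpy30 bind every one of these enzymes and raise their activity. In ESCs, Kmt2b places H3K4 trimethylation at bivalent promoters, and Wdr5 and Dpy30 are known for roles in self-renewal and in differentiation.

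All 10 genes are autosomal. On GRCm38, the catalytic subunit genes lie on the reverse strand at chromosome 9 from 44803355 to 44881296 (Kmt2a, ENSMUSG00000002028), chromosome 7 from 30568858 to 30588726 (Kmt2b, ENSMUSG00000006307), chromosome 5 from 25271798 to 25498783 (Kmt2c, ENSMUSG00000038056) and chromosome 15 from 98831669 to 98871204 (Kmt2d, ENSMUSG00000048154), and on the forward strand at chromosome 7 from 127776670 to 127800122 (Setd1a, ENSMUSG00000042308) and chromosome 5 from 123142193 to 123168629 (Setd1b, ENSMUSG00000038384). The core subunit genes lie on the forward strand at chromosome 2 from 27515157 to 27536535 (Wdr5, ENSMUSG00000026917) and chromosome 1 from 132477365 to 132505659 (Rbbp5, ENSMUSG00000026439), and on the reverse strand at chromosome 8 from 25815996 to 25847694 (Ash2l, ENSMUSG00000031575) and chromosome 17 from 74299474 to 74323944 (Dpy30, ENSMUSG00000024067).

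The promoters of the enhancer enzymes Kmt2c and Kmt2d are shown because the RNA of this paralogous pair behaved differently across the libraries, as described below. The sequences are the 250 bases before the RefSeq start on GRCm38.p6, read 5′ to 3′ on the reverse strand, with each CG dinucleotide in capitals. CG dinucleotides without methylation are what the CXXC domains of Kmt2a, Kmt2b and Cxxc1 bind.
Kmt2c, chr5:25498784-25499033: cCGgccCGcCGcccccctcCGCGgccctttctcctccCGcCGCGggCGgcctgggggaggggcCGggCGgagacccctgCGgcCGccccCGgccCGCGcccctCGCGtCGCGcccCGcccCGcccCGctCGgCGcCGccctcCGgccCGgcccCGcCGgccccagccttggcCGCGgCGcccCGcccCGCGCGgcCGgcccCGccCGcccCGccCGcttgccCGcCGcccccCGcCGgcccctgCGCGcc
Kmt2d, chr15:98871206-98871455: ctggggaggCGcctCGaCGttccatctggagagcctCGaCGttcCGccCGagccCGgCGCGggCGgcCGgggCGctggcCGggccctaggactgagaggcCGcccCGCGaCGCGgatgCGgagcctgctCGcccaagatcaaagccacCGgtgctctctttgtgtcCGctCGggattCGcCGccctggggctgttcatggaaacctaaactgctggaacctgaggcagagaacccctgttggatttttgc
The Kmt2c window holds 48 CG dinucleotides, and 0.178% of the 27025 RefSeq promoters hold as many or more in the same length. The Kmt2d window holds 26, a number that 9.24% of promoters reach, and the median promoter holds 6. Of the 10 genes, 7 were matched in the RefSeq promoter table, and Kmt2b, Setd1b and Ash2l were not.

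Depth ranged from 22170087 to 60798578 gene reads in a library. The summed level of 6 ESC markers was 1706 to 1843 TPM (exon reads per exon length, scaled to the same total in every library) in uninduced wild-type samples and 1448 to 2752 TPM in uninduced clones, against at most 14.4 TPM for any of 5 other lineage lists. That highest sum was for 3 mesoderm genes, at 2.20 to 4.13 TPM in uninduced wild-type samples and 4.58 to 14.4 TPM in uninduced clones. Eomes made most of it, at 1.45 to 3.64 TPM in uninduced wild-type samples and 14.1, 3.84 and 8.70 TPM in uninduced clones 8, 11 and 15, while T was at most 0.406 TPM in all 12 libraries and Mixl1 was above its uninduced wild-type values in clones 11 and 15. Among the ESC markers, Pou5f1 read 1126, 1779 and 713 TPM in uninduced clones 8, 11 and 15, highest in clone 11 and lowest in clone 15 like Setd1b and Kmt2d below, against 1091 to 1353 TPM in uninduced wild-type samples. Clone 15 had the highest uninduced values of Gata4, Col1a1 and Col1a2, at 5.42, 3.36 and 3.67 TPM. The part of these genes in the members' values was not tested. Cdk8 itself was at 64.2, 69.4 and 74.2 TPM in uninduced wild-type samples and at 34.4, 56.8 and 85.3 TPM in clones 8, 11 and 15. Its RNA was thus below all uninduced wild-type samples in clones 8 and 11 and above them in clone 15. After induction it was at 51.6, 51.5 and 53.1 TPM in wild-type samples and at 33.4, 57.8 and 84.9 TPM in the clones. RNA summed over the whole gene does not show whether the small deletion is present. The study checked its clones by sequencing of the locus, immunoblot and qRT-PCR across exons 2 and 3. Its immunoblot found no Cdk8 protein in clones 8, 11 and 15. It named a small insertion as a possible reason for residual transcript in a clone. RNA of single exons was not analysed here. ΔCdk8 is used throughout as the labels give it. No source used here says whether the wild-type samples came from separate cultures, so p-values measure the spread between these samples, which may be technical. In bulk RNA, fewer cells that make a transcript and less RNA per cell cannot be told apart.

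The core subunits were more abundant than most of the enzymes they serve. In uninduced wild-type samples, Dpy30 stood at 345 ± 2.94 TPM (mean ± SD, n = 3), Ash2l at 225 ± 47.7 and Wdr5 at 193 ± 10.6, which placed them above 96.3%, 94.2% and 93.0% of the 11801 genes with a mean of at least 1 TPM. Rbbp5 was the least abundant core subunit at 46.2 ± 2.79 TPM, below Setd1a at 58.0 ± 15.7 TPM and above Kmt2b at 39.5 ± 9.77 TPM. The other 4 enzymes formed a lower tier, with Kmt2a at 9.91 ± 1.82 TPM, Setd1b at 9.16 ± 3.67, Kmt2d at 7.80 ± 1.96 and Kmt2c at 7.66 ± 2.62. Along this order, the 3 libraries of a gene stood wholly above those of the next gene in 3 of 9 steps, from Dpy30 to Ash2l, from Wdr5 to Setd1a and from Kmt2b to Kmt2a, and the ranges of all other neighbours overlapped. The level of Setd1a is uncertain, because only 27.1% to 32.5% of its reads were uniquely mapped and AC149222.1 overlaps it on the same strand. For the other 9 genes at least 99.6% of reads were unique.

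**Figure D1:**
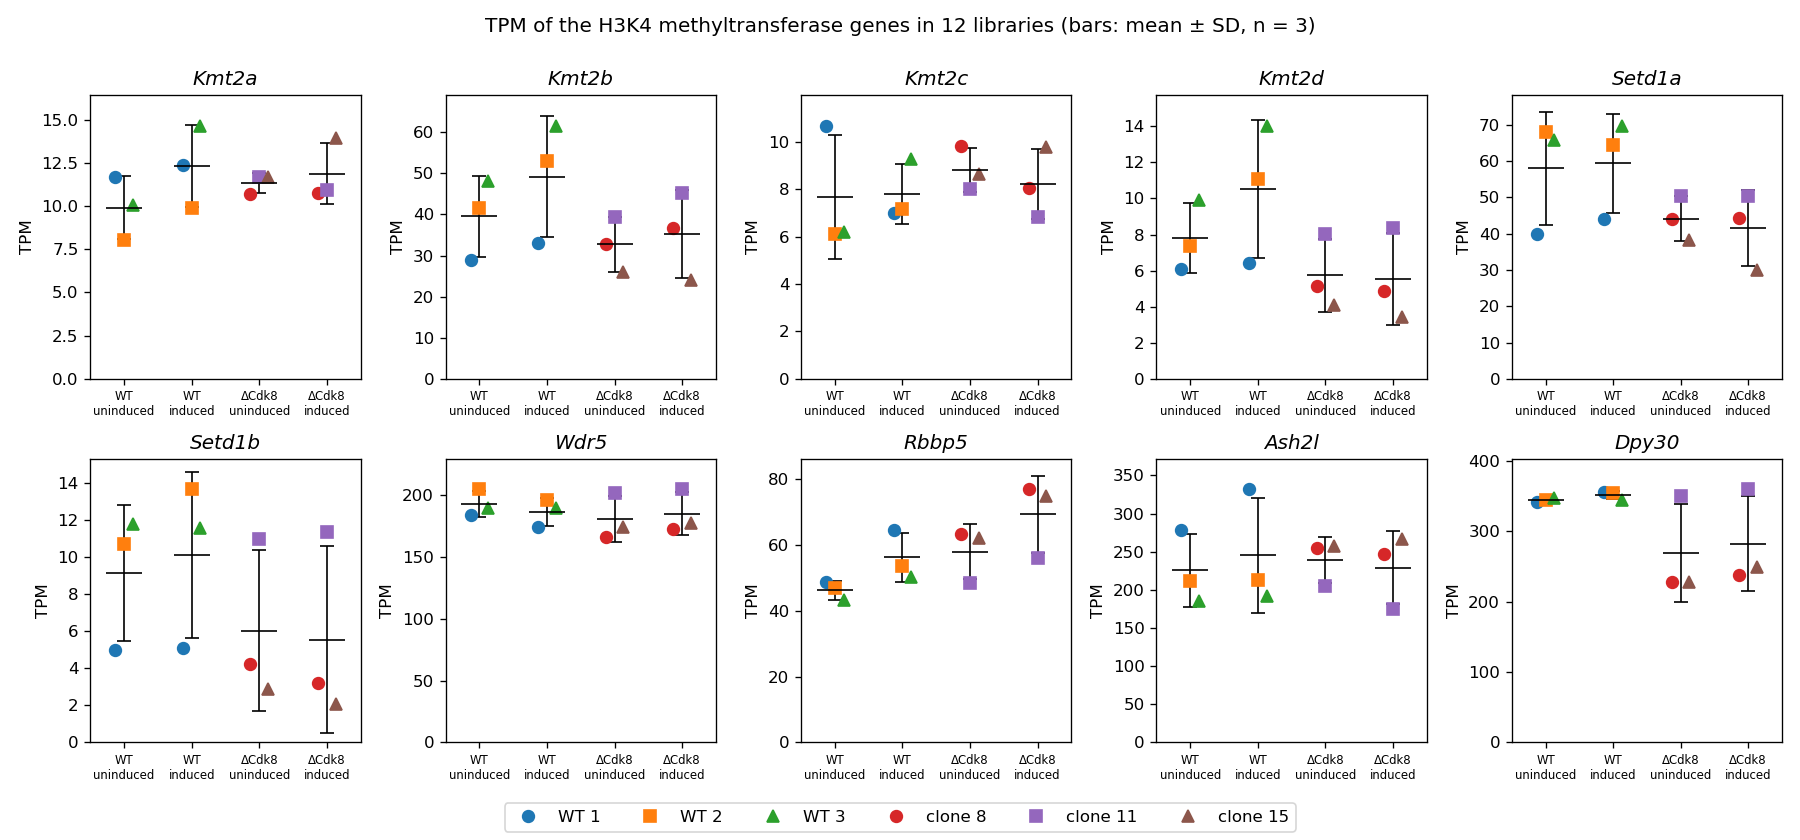
TPM of each of the 10 genes (vertical axes, linear and starting at 0) in the 4 groups, with a point per library coloured by wild-type number or clone and bars for the mean ± SD of 3 libraries. Dpy30 sat between 342 and 360 TPM in 8 libraries and between 228 and 249 TPM in the 4 libraries of clones 8 and 15, and Setd1b spread from 2.09 to 13.7 TPM.

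The genes differed strongly in how far their RNA ranged over the 12 libraries. Wdr5, the WD40 protein that docks the enzymes on the core, was the steadiest. It read 184, 204 and 190 TPM in uninduced wild-type samples 1, 2 and 3, 174, 196 and 189 TPM in the induced ones, 166, 202 and 174 TPM in uninduced clones 8, 11 and 15, and 172, 205 and 178 TPM in the induced clones. Its highest value was 1.23 times its lowest, a smaller range than in all but 0.584% of the 9597 genes with a mean of at least 5 TPM, whose median range was 2.15-fold. Setd1b was at the other end with a 6.53-fold range, wider than in 92.8% of these genes. It read 4.97, 10.7 and 11.8 TPM in uninduced wild-type samples, 5.11, 13.7 and 11.6 TPM in induced ones, 4.26, 10.97 and 2.89 TPM in uninduced clones 8, 11 and 15 and 3.20, 11.4 and 2.09 TPM in the induced clones. Wild-type 1 and clones 8 and 15 were thus low in both conditions, and wild-type 2 and 3 and clone 11 were high.

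Kmt2d ranged 4.12-fold with a similar order of libraries. Its values were 6.08, 7.39 and 9.94 TPM in uninduced and 6.44, 11.1 and 14.0 TPM in induced wild-type samples, against 5.14, 8.02 and 4.09 TPM in uninduced and 4.87, 8.38 and 3.41 TPM in induced clones 8, 11 and 15. Its paralogue Kmt2c ranged only 1.75-fold and in another order. It read 10.7, 6.11 and 6.18 TPM in uninduced and 7.01, 7.16 and 9.26 TPM in induced wild-type samples, and 9.80, 7.99 and 8.62 TPM in uninduced and 8.04, 6.84 and 9.76 TPM in induced clones. Wild-type 1, the lowest wild-type library for Kmt2d, was the highest for Kmt2c in uninduced conditions. Kmt2a ranged 1.83-fold, Rbbp5 1.78-fold and Dpy30 1.57-fold.

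Kmt2b, with a 2.57-fold range, read 28.8, 41.7 and 48.0 TPM in uninduced and 33.0, 52.9 and 61.6 TPM in induced wild-type samples, and 32.9, 39.3 and 25.9 TPM in uninduced and 36.8, 45.1 and 23.9 TPM in induced clones 8, 11 and 15. Setd1a, with a 2.32-fold range, read 39.9, 68.1 and 65.9 TPM in uninduced and 44.0, 64.4 and 69.7 TPM in induced wild-type samples, and 44.1, 50.3 and 38.1 TPM in uninduced and 44.2, 50.4 and 30.0 TPM in induced clones. Wild-type 1 was again the low wild-type sample for both genes, and clone 15 the lowest clone. Wild-type 1 also stood apart in other measures. Mitochondrial genes took 2.81% of its gene reads uninduced and 3.84% induced, against 1.85% to 2.001% in the other wild-type libraries, and the trophoblast gene Elf5 stood at 1.24 and 1.35 TPM, against at most 0.016 TPM in those libraries. The part of these differences in the members' values was not tested. Ash2l, with a 1.90-fold range, ran the other way. It read 278, 212 and 186 TPM in uninduced and 332, 212 and 192 TPM in induced wild-type samples, and 254, 205 and 258 TPM in uninduced and 247, 175 and 266 TPM in induced clones, so that wild-type 1 was its highest wild-type sample and clone 11 its lowest clone.

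Kmt2b, Kmt2d, Setd1a and Setd1b moved together over the 12 libraries. Pearson correlations of their log2 TPM values were 0.88 to 0.94 for all 6 pairs of these genes, and Setd1b also followed Wdr5 at 0.81 and Dpy30 at 0.83 and went against Rbbp5 at -0.81. These describe 12 points that share libraries, clones and base composition. The 4 genes are also those richest in GC among the 10, with 57.0% to 59.1% GC in the longest annotated transcript, against 42.3% for Dpy30 to 51.5% for Wdr5. GC content moved with level across the libraries. In uninduced wild-type 1, the correlation over the 10 genes between GC content and the log2 ratio to the uninduced wild-type mean was -0.81, and it was 0.47 in wild-type 2 and 0.85 in wild-type 3. That mean is of these same 3 libraries, so a deviation of wild-type 1 pushes the other wild-type samples the opposite way. Their correlations are not separate observations. The correlation over the 10 genes was -0.56, 0.13 and -0.67 in uninduced clones 8, 11 and 15. Over 9256 genes the same correlations were -0.27, 0.13 and 0.14 in the wild-type samples and 0.04, 0.03 and -0.21 in the clones, and the part of GC content in the members' values was not tested. The 3 genes whose log2 TPM followed the mean of the 10 members most closely over the 12 libraries were Hexim1, an inhibitor of the elongation kinase P-TEFb, Cluh and Zmat5, all on chromosome 11, with Pearson correlations of 0.98 each. These are the highest values found among all other genes with a mean of at least 5 TPM. The mean also hides members that ran against each other, such as Setd1b and Rbbp5.

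**Figure D2:**
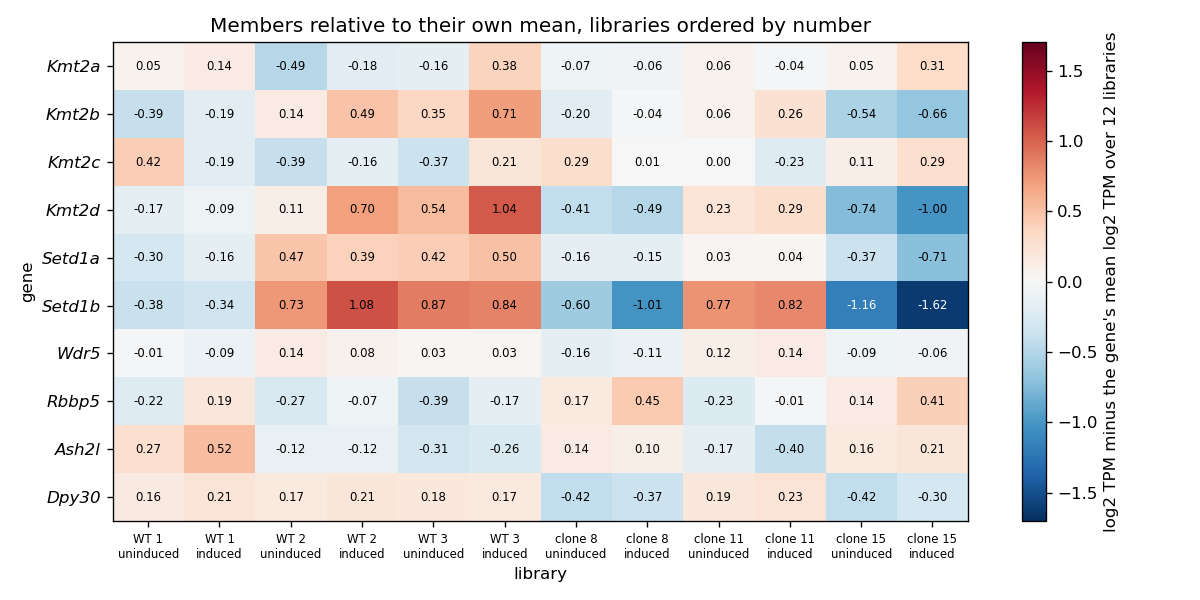
Heat map of log2 TPM minus each gene's own mean over 12 libraries (colour and printed value), with genes in rows and libraries in columns ordered by wild-type number and clone. Both libraries of a number have the same sign for Setd1b and Dpy30. Kmt2c instead changes from 0.42 uninduced to -0.19 induced in wild-type 1 and from -0.37 to 0.21 in wild-type 3. Setd1b runs from -1.62 in induced clone 15 to 1.08 in induced wild-type 2.

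**Figure D3:**
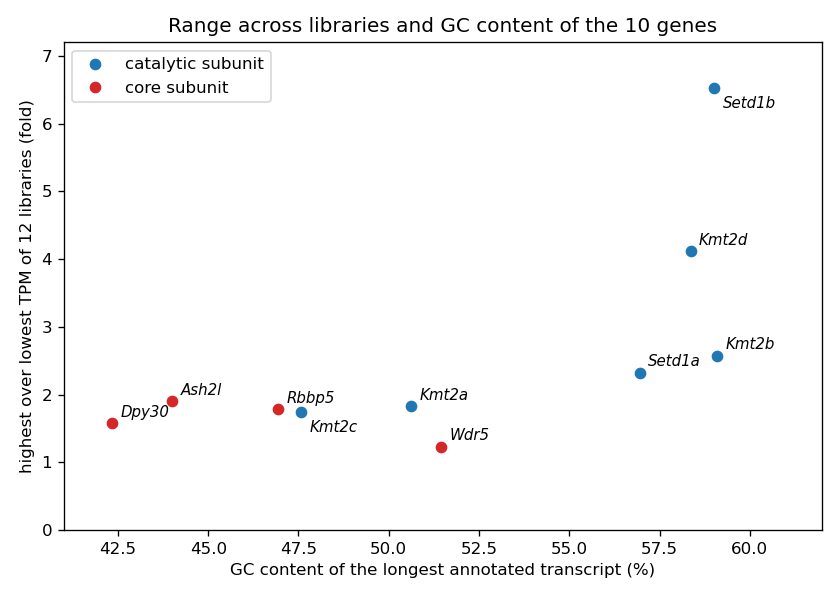
Highest over lowest TPM of the 12 libraries (vertical axis, fold) against GC content of the longest annotated transcript (horizontal axis, percent) for the 6 catalytic (blue) and 4 core (red) subunit genes. The 4 genes above 55% GC ranged 2.32-fold to 6.53-fold, and the other 6 ranged 1.23-fold to 1.90-fold.

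The first comparison asked whether loss of Cdk8 changed RNA of these genes in uninduced cells. None of the 10 passed the threshold (more than a 2-fold change with an adjusted p below 0.01) in edgeR's quasi-likelihood test, and neither did any of the 14646 genes tested (0%). At an unadjusted p under 0.05 there were 0 of 10 members against 20.4% of all genes, and DESeq2 called 0 of 10 members and 2.62% of genes. The median log2 fold change of the 10 was -0.32, against 0.03 for all genes tested. The 5 lowest log2 fold changes were -0.68 (SE 0.58) for Setd1b, -0.57 (SE 0.33) for Kmt2d, -0.53 (SE 0.25) for Setd1a, -0.48 (SE 0.24) for Dpy30 and -0.41 (SE 0.27) for Kmt2b. Kmt2a at 0.05 (SE 0.18), Kmt2c at 0.06 (SE 0.24) and Ash2l at -0.06 (SE 0.18) were near 0. Wdr5 stood at -0.24 (SE 0.17) and Rbbp5 at 0.24 (SE 0.14), and adjusted p values of the 10 genes in edgeR ran from 0.277 to 0.899. In TPM, the 3 mutant and 3 wild-type libraries overlapped for all 10 members, while they stood apart for 22.8% of 11801 genes.

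The spread among clones was large beside these differences. Dpy30, a small subunit that binds Ash2l, is an example. It read 342, 344 and 348 TPM in uninduced and 355, 355 and 345 TPM in induced wild-type samples. Clone 11 lay at 350 TPM uninduced and 360 TPM induced, at or just above the wild-type samples, whereas clones 8 and 15 both read 228 TPM uninduced and 238 and 249 TPM induced. Setd1b and Kmt2d were also lowest in these clones, so that for 3 of the 10 genes all 4 libraries of clones 8 and 15 lay below the other 8, as they did for 6.80% of 11801 genes. These clones were singled out after their values were seen, so no test is given. The median log2 ratio of chromosome 17, which holds Dpy30, was 0.14, 0.00 and 0.08 in uninduced clones 8, 11 and 15, so the chromosome as a whole was not low there. Of the 9 other expressed genes within 1 Mb of Dpy30, listed after its values were seen, Nlrc4 was also low in clones 8 and 15, at 2.69 and 3.09 TPM uninduced, against 12.6 TPM in clone 11 and 6.73 to 8.41 TPM in uninduced wild-type samples. Birc6 was lowest in these clones in uninduced conditions, at log2 ratios to the wild-type mean of -0.31 and -0.36 against -0.02 in clone 11, but after induction clones 8, 11 and 15 stood at -0.54, -0.31 and -0.29. The adjacent Memo1, at 72.9, 79.6 and 90.7 TPM in clones 8, 11 and 15, and Spast, at 15.7, 16.5 and 20.0 TPM, did not follow the same order. Others ran the opposite way, with Yipf4 at log2 ratios of 0.64, 0.15 and 0.89 in uninduced clones 8, 11 and 15 and Slc30a6 at 0.10, -0.10 and 0.32.

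Each library was also left out of the uninduced comparison in turn. The number of members at an unadjusted p under 0.05 in edgeR was 6 of 10 without clone 11, where 36.2% of all genes had such a p, and 1 of 10 without wild-type 1, where 28.7% of genes did. It was 0 without wild-type 2 or 3, against 9.91% and 9.50% of genes, and 0 without clone 8 or 15, against 11.2% and 13.8%. No member passed the threshold in any of these fits. The median log2 fold change of the 10, -0.32 with all libraries, was -0.55 without clone 11 and -0.19 without clone 15. Setd1b ranged from -1.59 without clone 11 to -0.32 without clone 15, and Kmt2d from -1.01 to -0.33 in the same fits. What the fit without clone 11 gives restates the low values of clones 8 and 15 described above and adds no independent evidence.

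Ratios between genes within a library do not depend on how libraries are scaled. They can still carry differences between genes in GC content. It was 47.6% for Kmt2c and 58.4% for Kmt2d, 50.6% for Kmt2a and 59.1% for Kmt2b, and 57.0% for Setd1a and 59.0% for Setd1b. Its part in the ratios was not tested. The uncertain level of Setd1a enters both its ratio to Setd1b and the summed enzymes. Kmt2c over Kmt2d in uninduced cells was 1.76, 0.827 and 0.621 in wild-type samples 1, 2 and 3 and 1.91, 0.997 and 2.11 in clones 8, 11 and 15, so that the genotypes overlapped. Its mean log2 value was higher by 0.72 (SE 0.56) in ΔCdk8 cells (exact permutation test, two-sided p = 0.2, adjusted p = 0.6 over 4 ratios). Kmt2a over Kmt2b was 0.404, 0.193 and 0.209 in wild-type samples and 0.325, 0.298 and 0.451 in the clones. Setd1a over Setd1b was 8.04, 6.35 and 5.59 in wild-type samples and 10.4, 4.58 and 13.2 in the clones, again with clone 11 apart from the other clones. The summed core subunits stood at 8.35, 5.69 and 5.05 times the summed enzymes in wild-type samples and at 6.66, 6.28 and 7.92 times in the clones. The log2 differences of these 3 ratios were 0.47 (SE 0.38), 0.38 (SE 0.49) and 0.16 (SE 0.24), with exact permutation p values of 0.3, 0.5 and 0.6 and an adjusted p of 0.6 each. With 3 against 3, the smallest p this test can give is 0.1.

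Xist induction for 48 h in wild-type cells was compared next. None of the members passed the threshold in edgeR, where 1.16% of 14006 genes did, and 1 of 10 had an unadjusted p under 0.05 against 21.2% of all genes. DESeq2 called 0 members and 4.73% of genes. The member was Rbbp5, which encodes the subunit that holds Wdr5 and Ash2l together. It read 48.6, 46.8 and 43.1 TPM in uninduced samples 1, 2 and 3 and 64.6, 53.7 and 50.3 TPM after induction, and its groups were the only ones among the 10 that did not overlap, against 27.2% of 11801 genes. In the fit without pairing its log2 fold change was 0.33 (SE 0.12, edgeR adjusted p = 0.177). Samples with the same number resembled each other, so the fit was repeated with the number as a block. No member passed the threshold then, against 3.95% of genes.

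At an adjusted p under 0.05 with no fold change minimum, a setting added after the data were seen, the blocked fit called 2 of 10 members higher in induced wild-type cells, against 12.2% of all genes. These were Rbbp5, with a log2 fold change of 0.33 (SE 0.07, edgeR adjusted p = 0.0230), and Kmt2b, with 0.34 (SE 0.07, edgeR adjusted p = 0.0257). Induced Kmt2b was 1.15, 1.27 and 1.28 times the uninduced level in TPM in pairs 1, 2 and 3. Kmt2d had 0.42 (SE 0.12, edgeR adjusted p = 0.0625) and Kmt2a 0.35 (SE 0.12, edgeR adjusted p = 0.0868) in the same fit. The other 6 members stood closer to 0 under the block. Setd1b was at 0.17 (SE 0.10), Ash2l at 0.13 (SE 0.07), Kmt2c at 0.09 (SE 0.24), Setd1a at 0.08 (SE 0.07), Dpy30 at 0.07 (SE 0.06) and Wdr5 at -0.02 (SE 0.07), with edgeR adjusted p values from 0.194 to 0.894. Kmt2a read 11.7, 8.02 and 10.1 TPM uninduced and 12.4, 9.89 and 14.7 TPM induced in wild-type cells, against 10.7, 11.7 and 11.7 TPM and 10.8, 10.9 and 13.9 TPM in clones 8, 11 and 15. Leaving out pair 2 or pair 3 left 0 of 10 members called, against 1.79% and 4.22% of genes called higher, and leaving out pair 1 left 5, namely Kmt2a, Kmt2b, Kmt2c, Kmt2d and Rbbp5, against 21.9% of genes called higher.

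In ΔCdk8 cells, induced and uninduced TPM overlapped for all 10 members, against 4.98% of 12313 genes whose groups stood apart. Induction left all 10 members short of the threshold in edgeR, as it did all 14832 genes tested (0%), with 0 members against 2.64% of genes at an unadjusted p under 0.05 and 0 members against 0.243% called by DESeq2. With the clone as a block, 1.40% of genes but no member passed. At an adjusted p under 0.05 with no fold change minimum, the blocked fit called Rbbp5 alone among the 10, with a log2 fold change of 0.33 (SE 0.07, edgeR adjusted p = 0.00600), against 5.60% of all genes called higher. Rbbp5 went from 63.4, 48.3 and 62.2 TPM in uninduced clones 8, 11 and 15 to 76.9, 55.9 and 75.0 TPM after induction. Its induced level was 1.21, 1.16 and 1.21 times the uninduced level in these clones and 1.33, 1.15 and 1.17 times in wild-type samples 1, 2 and 3. Without clone 8 it was no longer called (log2 fold change 0.29, edgeR adjusted p = 0.135), against 2.20% of genes called higher, and it was called without clone 11 or clone 15, against 4.37% and 6.13%. The log2 fold changes of the other 9 members under the block were -0.21 (SE 0.11) for Setd1b, 0.12 (SE 0.07) for Dpy30, 0.11 (SE 0.08) for Kmt2b, 0.09 (SE 0.08) for Kmt2a, -0.09 (SE 0.09) for Kmt2c, -0.08 (SE 0.08) for Setd1a, 0.07 (SE 0.07) for Wdr5, -0.06 (SE 0.09) for Kmt2d and -0.04 (SE 0.08) for Ash2l. Their edgeR adjusted p values ran from 0.232 to 0.781. These shares of 2 and 1 in 10 are near those of all genes and say nothing particular about the members.

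**Figure D4:**
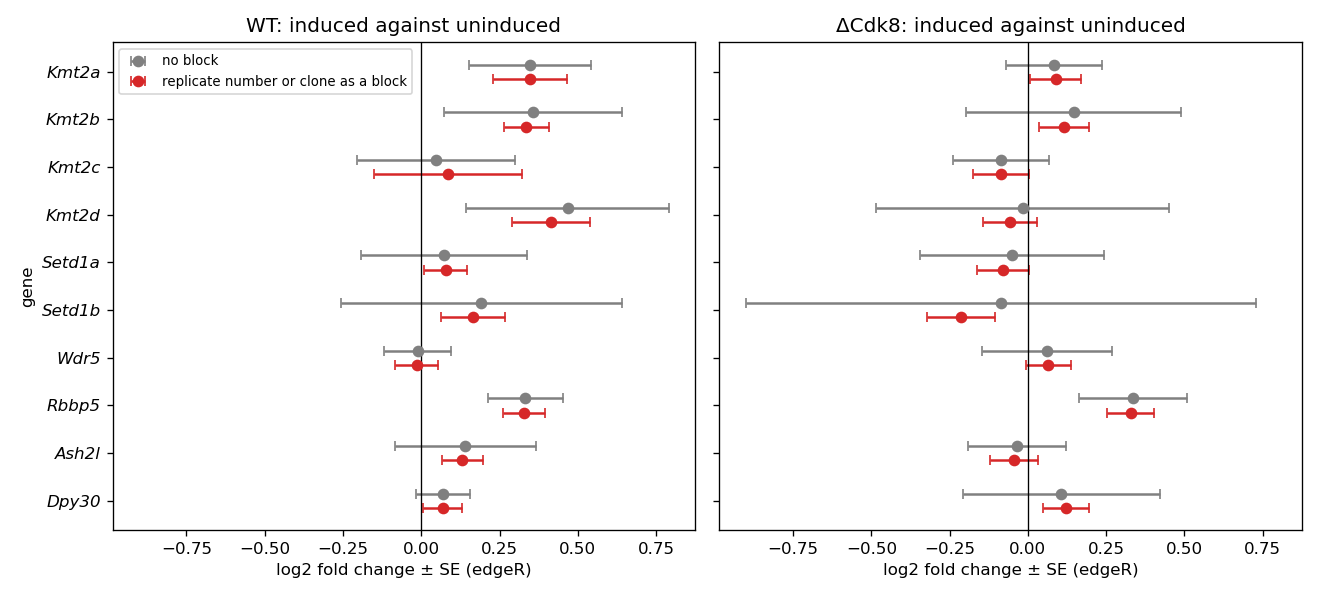
Log2 fold change ± SE of induced against uninduced samples (horizontal axis, edgeR) for each gene, in wild-type (left) and ΔCdk8 cells (right), without pairing (grey) and with samples paired by number or clone in a block (red). Rbbp5 lies at 0.33 in both genotypes with an SE of 0.07 under the block, and the block narrows the errors of most genes.

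Whether induction acted differently in the genotypes was tested with an interaction term in a fit of the 12 libraries. No member passed in edgeR (0% of 15137 genes), 0 members and 3.88% of genes had an unadjusted p under 0.05, and DESeq2 called 0 members and 0.218% of genes. For Rbbp5 the interaction was 0.02 (SE 0.21) without the block and 0.02 (SE 0.10) with it. Kmt2d had the largest value, -0.46 (SE 0.63) without and -0.45 (SE 0.16, edgeR adjusted p = 0.123) with the block, where 0.998% of genes and no member passed. With the block, the other members were at -0.36 (SE 0.16) for Setd1b, -0.24 (SE 0.15) for Kmt2a, -0.20 (SE 0.11) for Kmt2b, -0.16 (SE 0.10) for Ash2l, -0.15 (SE 0.27) for Kmt2c, -0.14 (SE 0.12) for Setd1a, 0.10 (SE 0.09) for Wdr5 and 0.08 (SE 0.09) for Dpy30, with edgeR adjusted p values from 0.217 to 0.785. For Kmt2d, the induced over uninduced ratios in TPM were 1.06, 1.502 and 1.41 in wild-type pairs and 0.948, 1.05 and 0.835 in the clones.

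The genotypes were also compared in induced cells, where the 6 libraries are others but come from the same clones and wild-type cells. No member and none of 14143 genes passed in edgeR (0%), 1 of 10 members and 25.9% of genes had an unadjusted p under 0.05, and DESeq2 called 0 members and 5.80% of genes. The median log2 fold change of the 10 was -0.34, against 0.03 for all genes. The member was Kmt2d, at -1.05 (SE 0.44, edgeR adjusted p = 0.186), followed by Setd1b at -0.96 (SE 0.69), Setd1a at -0.65 (SE 0.30), Kmt2b at -0.62 (SE 0.35) and Dpy30 at -0.44 (SE 0.23). Ash2l stood at -0.24 (SE 0.22), Kmt2a at -0.21 (SE 0.19), Wdr5 at -0.17 (SE 0.18), Kmt2c at -0.08 (SE 0.19) and Rbbp5 at 0.24 (SE 0.18). TPM groups overlapped for all 10 members, against 27.8% of 11694 genes whose groups stood apart. With a library left out, the number of members at an unadjusted p under 0.05 was 5 of 10 without clone 11, against 38.2% of all genes, and 3 of 10 without wild-type 1, against 30.2%. It was 0 without wild-type 2 or 3, against 16.0% and 13.5% of genes, and 0 without clone 8 or 15, against 17.8% and 18.9%. No member passed the threshold in these fits. The median of the 10, -0.34 with all libraries, ranged from -0.53 without clone 11 to -0.28 without clone 15. The fit without clone 11 again restates the low values of clones 8 and 15.

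Reads on introns can come from unspliced RNA or from genomic DNA, which cannot be told apart here. The intron share of gene reads was highest for Rbbp5 in all 12 libraries. Ash2l, which carries a DNA-binding domain, had the lowest share in uninduced wild-type samples, with 1.36%, 1.37% and 1.36% of its reads on introns in samples 1, 2 and 3, against 3.90%, 1.90% and 2.56% in clones 8, 11 and 15. After induction its shares were 2.06%, 1.82% and 1.53% in wild-type samples and 4.93%, 2.08% and 4.06% in the clones. The groups did not overlap between genotypes in either condition, nor between induced and uninduced wild-type samples. Rbbp5 had 9.91%, 8.34% and 9.25% in uninduced wild-type samples against 17.1%, 11.1% and 13.4% in the clones, again with no overlap.

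In uninduced cells, 2 of 10 members (Ash2l and Rbbp5) had a higher intron share in every clone than in every wild-type sample, against 16.5% of 9006 genes, and 2 of 10 (Ash2l and Dpy30) had a higher share in every induced than in every uninduced wild-type sample, against 14.5% of genes. In induced cells it was 1 of 10 (Ash2l), against 8.01% of genes, and for induction in ΔCdk8 cells 0 of 10, against 3.92%. For each of these the exact permutation test gave p = 0.1, the smallest possible, and an adjusted p of 0.5 or more over the 10 members. The share of all gene reads on introns moved as well, from 4.77% to 5.54% in uninduced wild-type samples to 5.39% to 6.87% in uninduced clones, and its part in the members' values was not tested.

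**Figure D5:**
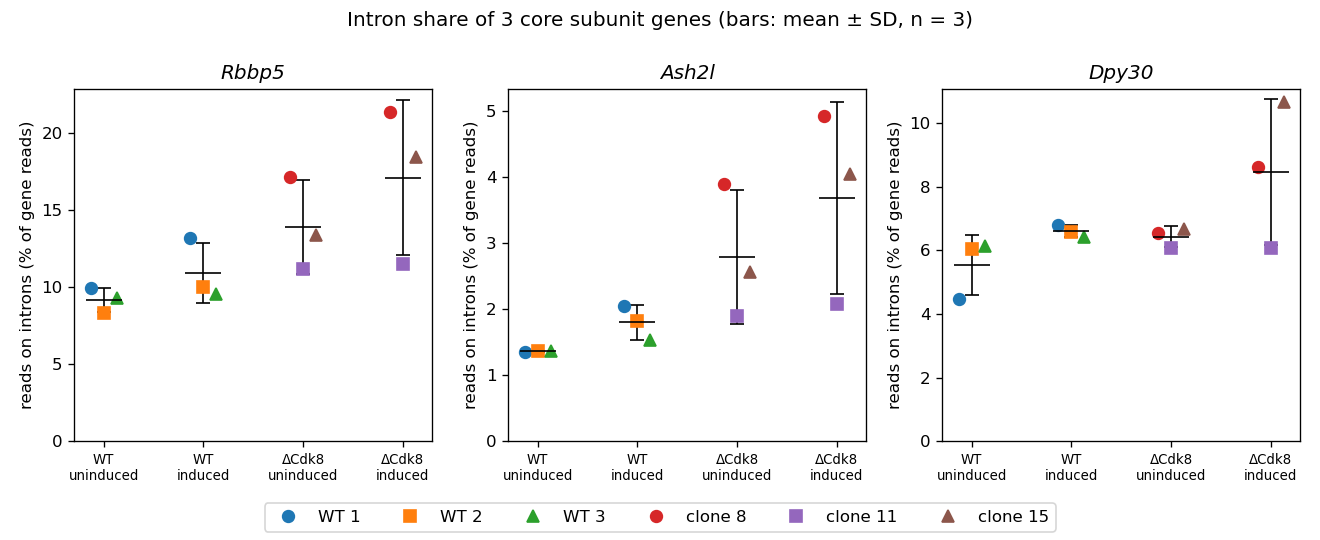
Reads on introns as a percentage of gene reads (vertical axes, starting at 0) for Rbbp5, Ash2l and Dpy30 in the 4 groups, with a point per library coloured by wild-type number or clone and bars for the mean ± SD of 3 libraries. Ash2l lay at 1.36% to 1.37% in uninduced wild-type samples and at 1.90% to 3.90% in uninduced clones.

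Other genes of the H3K4 pathway were examined in 4 lists. They held 11 subunits found in only some of the complexes, 5 demethylases, 6 other SET or SMYD proteins and 12 readers, all of which were tested. In edgeR without the block, no gene of any list passed the threshold in the 5 comparisons. With the block, Setd7 passed as described below. In uninduced cells the largest values in each list were -1.24 (SE 1.19) for Pagr1a, a partner of Kmt2c and Kmt2d, -0.32 (SE 0.13) for the demethylase Kdm5c, 1.46 (SE 0.49) for Smyd1 and -1.11 (SE 0.36, edgeR adjusted p = 0.180) for the reader Dido1. Median log2 fold changes were -0.23, -0.11, 0.37 and -0.27 in the 4 lists, against 0.03 for all genes. Dido1 read 20.3, 40.2 and 40.5 TPM in uninduced wild-type samples and 14.5, 22.7 and 10.1 TPM in the clones. In induced cells it was at -1.51 (SE 0.29, edgeR adjusted p = 0.0569), a change that DESeq2 called. The other largest values in induced cells were -1.54 for Pagr1a, -0.57 for Kdm5b and 1.19 for Setd7.

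Induction in wild-type cells had its largest values in Kdm5c, the reader Ing4, Hcfc2 and Setd7, a SET enzyme that monomethylates H3K4 and other proteins. Kdm5c is X-linked, and went from 77.5, 85.5 and 89.2 TPM to 41.9, 54.0 and 51.0 TPM in wild-type cells (log2 fold change -0.75, SE 0.14, edgeR adjusted p = 0.0366) and from 77.05, 73.1 and 75.3 TPM to 53.6, 57.6 and 51.7 TPM in clones 8, 11 and 15 (log2 fold change -0.44, SE 0.17, edgeR adjusted p = 1.00). With the block these were -0.76 (SE 0.08, edgeR adjusted p = 0.00360) and -0.45 (SE 0.07, edgeR adjusted p = 0.000340), both under a 2-fold change, and the interaction was 0.33 (SE 0.11, edgeR adjusted p = 0.0968). The X-linked Hcfc1, a subunit of the Setd1 complexes, went from 122, 153 and 168 TPM to 71.7, 109 and 113 TPM in wild-type cells, and the X-linked demethylase Kdm6a from 28.0, 33.7 and 28.3 TPM to 33.2, 35.8 and 34.7 TPM. Ing4 went from 45.3, 47.2 and 47.2 TPM to 74.0, 74.3 and 73.5 TPM in wild-type cells (log2 fold change 0.71, SE 0.10, edgeR adjusted p = 0.0134). The largest value among the subunits found in only some of the complexes was 0.70 (SE 0.26) for Hcfc2. In ΔCdk8 cells the largest values besides Kdm5c were -0.37 (SE 0.25) for Hcfc1, 0.36 (SE 0.66) for Prdm9 and -0.38 (SE 0.16) for Phf8. In the interaction they were 0.43 (SE 0.25) for Psip1, -0.42 (SE 0.27) for Kdm5b and -0.50 (SE 0.35) for Ing4, beside Setd7.

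For Setd7 the call depended on the fit. It read 11.5, 12.3 and 18.4 TPM uninduced and 7.16, 4.82 and 7.22 TPM induced, a log2 fold change of -1.09 (SE 0.24, edgeR adjusted p = 0.0537) without the block and -1.08 (SE 0.14, edgeR adjusted p = 0.00579) with it, which is past the threshold. In uninduced clones 8, 11 and 15 it read 14.7, 7.39 and 29.2 TPM, and after induction 15.1, 5.71 and 30.8 TPM. The interaction was 1.15 (SE 0.69, edgeR adjusted p = 1.00) without the block and 1.07 (SE 0.18, edgeR adjusted p = 0.00993) with it.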

How the data were processed

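RNA of 12 libraries was analysed. The authors enriched poly(A) RNA, prepared stranded libraries, sequenced single-end reads and aligned them, adapters untrimmed, to Ensembl GRCm38.94 with CLC Genomics Workbench 11. The strand setting of the counting is not given in the sources used here. They deposited 1 table per library, with raw read counts per gene, exon and intron, TPM values and RPKM values (not used here). They also deposited fraction columns for unique exon reads and for intron reads, while the shares given here were computed from the counts.

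The sample grouping came from the labels. The 10 members, the related lists and the markers were chosen with earlier results of these data known. All members are described in every comparison. For a related list, genes past the threshold, the gene with the largest change and X-linked members in the induction comparisons may be named. Total gene reads were tested in R 4.3.3 with edgeR 4.0.16 (TMM, filterByExpr at its defaults of 10 counts and 15 in total, quasi-likelihood test, Benjamini-Hochberg adjustment over all genes), and DESeq2 1.42.0 was an alternative. The threshold was more than a 2-fold change with an adjusted p below 0.01. The SE of an edgeR log2 fold change is its size over the square root of F. All tests are two-sided. Python 3.11.15, numpy 2.4.6, pandas 2.3.3, scipy 1.17.1 and matplotlib 3.10.9 were used, and GC content came from GENCODE M21. The steps were tested on simulated data.

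Same-numbered uninduced and induced samples deviated together from their group means over 14661 genes, with correlations of 0.69, 0.63 and 0.58 in wild-type and 0.88, 0.91 and 0.86 in ΔCdk8 samples. Samples with different numbers correlated at -0.71 to 0.03 except uninduced wild-type 2 with induced 3 (0.41) and uninduced 3 with induced 2 (0.21). The pairing comes from the numbers in the sample titles and, for ΔCdk8, from the clone. Member reads in a library ranged from 220 for Setd1b to 27376 for Ash2l.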

Additional observations from a re-analysis of the deposited data

Results flagged for a closer look

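Wdr5 was lower after induction in each of the 3 wild-type pairs and higher in each of the 3 clones, by 0.08, 0.06 and 0.00 and by 0.06, 0.02 and 0.03 on the log2 TPM scale. The interaction given below is ΔCdk8 minus wild type. The mean difference between genotypes was taken the other way, as wild type minus ΔCdk8, and was -0.082. This difference between pairs was not tested by itself, and 3.36% of 11801 genes had pair changes of one sign in all wild-type pairs and of the other in all clones. The interaction in edgeR was 0.09 (SE 0.25, edgeR adjusted p = 1.00) without the block and 0.10 (SE 0.09, edgeR adjusted p = 0.540) with it.

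The change of Setd7 with induction differed between the genotypes by 1.07 on the log2 scale in the fit that paired samples by number or clone in a block (edgeR adjusted p = 0.00993). Without the block it was 1.15 (SE 0.69, edgeR adjusted p = 1.00), and Setd7 went from 7.39 to 5.71 TPM in clone 11, down as in the wild-type pairs.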

How the results depend on the processing

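No member passed the threshold in any of the 5 comparisons under DESeq2, other size factors, autosomal scaling, other count filters, exon or unique reads, all 12 libraries in 1 fit, the replicate block, or leaving out any replicate. The block, fitted for induction and the interaction, changed a call of members only at an adjusted p under 0.05 with no fold change minimum, a setting added after the data were seen, where it gave 2 members in wild-type and 1 in ΔCdk8 cells, with 0 to 5 and 0 to 1 when a pair was left out. The log2 fold changes changed sign in 23 of 800 recomputed values, all of them with a replicate left out and for 12 values near 0. With a replicate left out these ranged from -0.081 to 0.18 for Kmt2a, -0.087 to 0.36 for Kmt2c and -0.20 to 0.11 for Ash2l in the uninduced genotype comparison, from -0.27 to 0.42 for Kmt2c and -0.00023 to 0.12 for Setd1a with induction in wild-type cells, from -0.023 to 0.16 for Kmt2a, -0.14 to 0.029 for Kmt2d, -0.16 to 0.026 for Setd1a and -0.11 to 0.027 for Ash2l with induction in ΔCdk8 cells, from -0.52 to 0.18 for Kmt2c and -0.044 to 0.076 for Rbbp5 in the interaction, and from -0.17 to 0.085 for Kmt2c in the induced genotype comparison. The cause was not tested.

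Over all genes, the number past the threshold depended on the tool and the pairing. It was 0, 162, 0, 0 and 0 in edgeR for the uninduced genotype comparison, induction in wild-type and in ΔCdk8 cells, the interaction and the induced genotype comparison, and 383, 662, 36, 33 and 821 in DESeq2. With the block it was 553 for wild-type induction, 208 for ΔCdk8 induction and 151 for the interaction, and without the block but with pair 1 left out, 193 genes were higher and 373 lower in induced wild-type cells, against 21 and 141 with all pairs and 0 without pair 2 or pair 3. The 4 ratios within libraries kept their direction in every alternative, but their size rested on single libraries. Setd1a over Setd1b, 0.38 with all libraries, was 0.065 without clone 15 and 0.83 without clone 11, and the core over the catalytic subunits, 0.16 with all, was 0.0059 without wild-type 3 and 0.37 without wild-type 1. Kmt2a over Kmt2b ran from 0.28 without wild-type 2 to 0.81 without wild-type 1, and Kmt2c over Kmt2d from 0.40 without wild-type 3 to 1.15 without wild-type 1. With 3 samples against 3 the smallest p is 0.1. Setd1b had the lowest read count of the members, with as few as 220 reads in a library.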
